A study of Homo sapiens with 6 samples.

Results

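The creatine system was described in the human liver tumour cell line PLC/PRF/5, derived from a hepatocellular carcinoma, through the genes of creatine synthesis (GATM, GAMT), the creatine kinases CKB, CKM and CKMT2, and the creatine transporter SLC6A8. Members were the transcript clusters (the array's unit for a whole gene) whose annotation gives exactly 1 of these symbols, chosen by the mean level over the 6 arrays where a gene has several, and each measured gene had 1. This gave 5 of the 6 genes out of 18708 clusters on the array. SLC6A8 had no cluster of its own, because the 1 cluster that lists it also lists a second symbol, and it was not analysed here. CKB was already known to have one of the largest falls in these data when the genes were brought together, so its values describe the data and support nothing further.

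Cells received a control siRNA (labelled siGL, against an irrelevant target) on 3 arrays or siRNAs against the splicing factor SLU7 (labelled siSLU7) on 3 arrays, and RNA was taken 48 h after transfection. Both groups were the same tumour line grown in serum-containing medium and transfected with the same lipid reagent. The array was the Affymetrix Human Exon 1.0 ST, and each value is a log2 expression level for a whole transcript cluster, so 1 unit is a doubling of signal. Separate cultures are not stated for the replicates, so each p-value covers the spread of these arrays alone and that spread may be technical. The sample descriptions number both siRNAs from 1 to 3, read here as replicate numbers. If they stand for different siRNAs, the spread within a group includes that difference, and which SLU7 siRNA was on which array is not clear from the labels.

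Creatine is made in a pair of steps. GATM, a mitochondrial enzyme, joins arginine and glycine into guanidinoacetate, and GAMT, a cytosolic enzyme, methylates it with S-adenosylmethionine. In the body, kidney and pancreas are the main sites of the first step and liver of the second, and liver exports creatine but has little creatine kinase of its own. Creatine kinases transfer phosphate between ATP and creatine, which gives tissues of high and changing demand a reserve of phosphate: CKB is the brain-type cytosolic form, CKM the muscle-type cytosolic form and CKMT2 the sarcomeric mitochondrial form of heart and skeletal muscle.

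The bases upstream of CKB and GATM are shown first because these were the members that lay lower after SLU7 siRNA on every array. They are the 250 bases before the gene start in RefSeq (GRCh38.p14), written 5′ to 3′ on the gene's strand, which is the minus strand for both. Capitals mark the TATA box letters TATAAA, the CCAAT box, the GC box GGGCGG and the core letters of a hypoxia response element, written ACGTG or as the form GCGTG, each searched on both strands.
CKB, chr14:103522831-103523080: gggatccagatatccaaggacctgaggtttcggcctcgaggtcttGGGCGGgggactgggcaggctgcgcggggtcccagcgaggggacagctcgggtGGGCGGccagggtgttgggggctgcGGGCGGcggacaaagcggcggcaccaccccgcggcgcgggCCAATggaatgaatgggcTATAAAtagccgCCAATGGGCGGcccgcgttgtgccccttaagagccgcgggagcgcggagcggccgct
GATM, chr15:45378545-45378794: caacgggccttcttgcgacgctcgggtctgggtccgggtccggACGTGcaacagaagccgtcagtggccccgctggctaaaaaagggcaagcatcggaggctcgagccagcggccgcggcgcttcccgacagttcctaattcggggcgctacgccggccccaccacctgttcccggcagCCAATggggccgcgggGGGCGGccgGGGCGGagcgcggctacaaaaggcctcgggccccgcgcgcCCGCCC

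The CKB sequence held 1 TATAAA, starting 69 bases before the gene start, with a CCAAT on each side of it at 87 and 57 bases, and 4 copies of GGGCGG. The last GGGCGG begins where the second CCAAT ends. The GATM sequence held no TATAAA, 1 CCAAT at 71 bases, 3 copies of GGGCGG and 1 ACGTG at 207 bases. GCGTG was in neither. Over the 35116 genes of all kinds in the same RefSeq table, TATAAA was found in 10.7% of such 250-base windows, CCAAT in 32.01%, GGGCGG in 42.6%, ACGTG in 18.5% and GCGTG in 32.2%. The shared motifs are common ones, and a match describes letters, not binding. The windows of CKM, CKMT2 and SLC6A8 were found in the table too, so 5 of the 6 genes matched. CKM and CKMT2, which had positive differences, each held 1 copy of both motifs shared by CKB and GATM. CKMT2 also held the TATA box letters, starting 146 bases before the gene start. The SLC6A8 window held 4 copies of the GC box and none of the other motifs. The shared motifs and the TATA box letters were thus not limited to the members that lay lower.

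Over the whole series, array medians lay between 6.61 and 6.63 log2 units and lower quartiles between 4.86 and 4.98, and a level under the mean of those quartiles (4.92) is called dim here. That line comes from the spread of all clusters, so a level above it does not show that a gene is on. The number of arrays limits the precision. The first principal component set control replicate 2 and SLU7 replicate 1 away from the remaining arrays, so each member's values are also given within that pair and within the other 4. SLU7 itself was lower on every knockdown array, by 1.51 ± 0.31 (SE) log2 units (limma adjusted p = 0.078), which left 35.2% of the control level. Of the hepatocyte markers, 15 of 17 were measured: KRT18 (mean 12.8 log2 units over the 6 arrays), TF, KRT8, AMBP and APOA1 were the brightest, and 2 of the 15 were dim in both groups: ALB, the defining product of hepatocytes (3.87 with control siRNA and 3.07 with SLU7 siRNA), and APOH (4.83 and 4.36). SERPINA1 (5.07 and 4.56), TTR (5.97 and 5.90) and AFP (6.01 and 5.21) lay below the array medians as well.

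**Figure D1:**
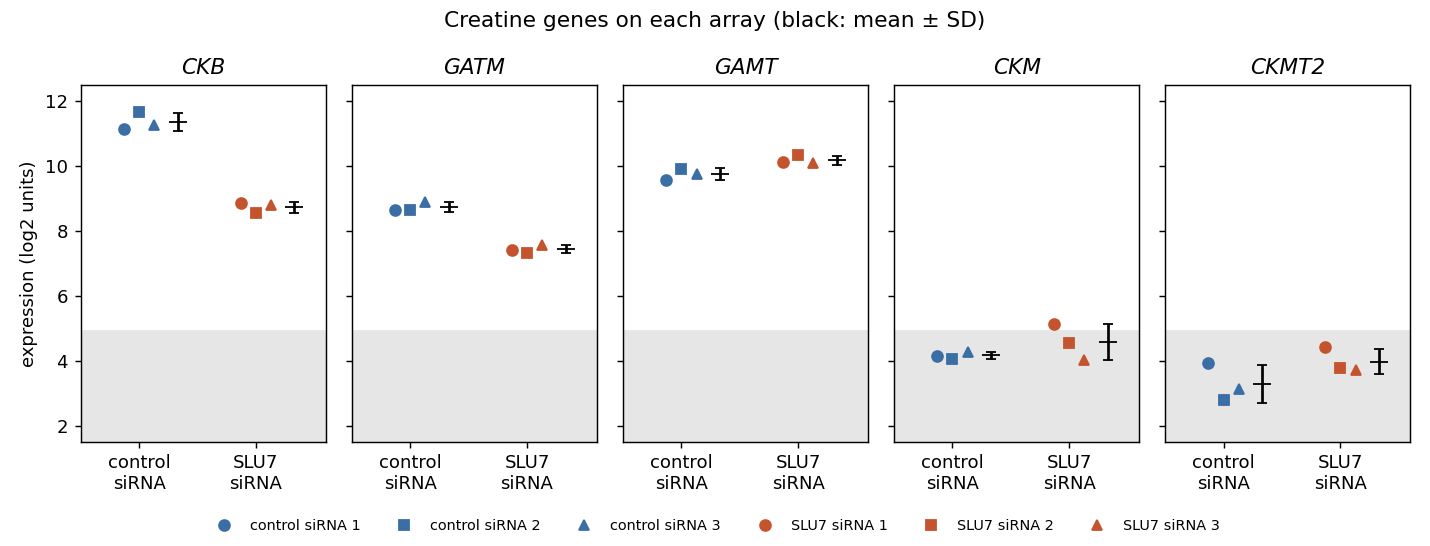
Expression of the 5 measured creatine genes (log2 units, vertical axis) on each array, with 3 control siRNA arrays in blue and 3 SLU7 siRNA arrays in red, marker shape giving the replicate number and black bars the mean ± SD. The grey band is the dim range below 4.92; CKB and GATM separate downward, GAMT separates narrowly upward, and CKM and CKMT2 overlap inside or near the band.

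CKB fell most of the members and carried the largest change of this system. Its levels were 11.15, 11.67 and 11.27 log2 units on the control arrays and 8.85, 8.54 and 8.80 on the SLU7 siRNA arrays. The groups lay 2.31 log2 units apart at their nearest values. With control siRNA the mean was 11.37 ± 0.27 (SD, n = 3), a bright signal, and with SLU7 siRNA it was 8.73 ± 0.16 (SD, n = 3), which is still well above the dim range. CKB thus differed by -2.64 ± 0.26 (SE) log2 units, leaving 16.1% of the control level, 6.23-fold lower with a 95% interval of 4.14 to 9.38.

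CKB ranked 13 among all clusters by the size of its fall and 2 by its unadjusted p. Its adjusted p was 0.032 in the limma fit over all clusters (Benjamini-Hochberg), and it was the only 1 of the 5 measured members to pass the threshold of 0.05, against 0.433% of all clusters that passed in either direction and 0.299% that passed as lower. The difference was -2.83 within the pair, which compares single arrays, and -2.55 within the other 4. By exact permutation (two-sided) p was 0.1, and no smaller p is possible with 3 arrays against 3. Without any 1 of the 6 arrays the limma adjusted p of CKB was 0.0591 to 0.18, outside the threshold, with differences of -2.74 to -2.49. With the replicate number as a block it was 0.161.

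GATM, the enzyme of the first and committed step of creatine synthesis, was lower on every SLU7 siRNA array. Its levels were 8.64, 8.64 and 8.90 log2 units with control siRNA and 7.42, 7.33 and 7.58 with SLU7 siRNA. The groups lay 1.06 log2 units apart at their nearest, and all 6 values were above the dim range. The means were 8.73 ± 0.15 and 7.44 ± 0.13 (SD, n = 3 each). GATM differed by -1.28 ± 0.24 (SE) log2 units, leaving 41.1% of the control level, 2.43-fold lower with a 95% interval of 1.67 to 3.55.

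GATM did not pass over all clusters in the main analysis (limma adjusted p = 0.062; exact two-sided permutation p = 0.1). Only 1.79% of all clusters had a difference as low or lower. GATM read -1.22 in the pair and -1.32 in the other 4 arrays. It passed with limma when clusters below the lower quartile of mean level were left out (adjusted p = 0.0294), with an intensity trend and robust shrinkage (0.0176), with array weights (0.0191) and with a term for the pair of arrays (0.0285). Over its other alternatives the adjusted p ran up to 0.236.

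GAMT, the methyltransferase of the second step, had the opposite sign to GATM. Its levels were 9.57, 9.92 and 9.76 log2 units with control siRNA and 10.11, 10.34 and 10.09 with SLU7 siRNA. Every SLU7 siRNA array was above every control array, by 0.17 log2 units at the nearest values. The means were 9.75 ± 0.17 and 10.18 ± 0.14 (SD, n = 3 each), and the gene was among the brighter ones, above 92.8% of clusters by its mean over the 6 arrays.

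The GAMT difference of 0.43 ± 0.24 (SE) log2 units is a 1.34-fold higher level, with a 95% interval from 0.916 to 1.97 times control that includes no change. It did not pass (limma adjusted p = 0.54; exact two-sided permutation p = 0.1), and 17.6% of all clusters had a difference as high or higher. In the pair the difference was 0.19 and in the other 4 arrays 0.54. These data therefore gave values of opposite sign for the consecutive enzymes of synthesis, of which neither passed the test over all clusters.

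CKM was dim on nearly every array. Its levels were 4.16, 4.05 and 4.28 log2 units with control siRNA and 5.13, 4.56 and 4.04 with SLU7 siRNA. The groups overlapped, since SLU7 replicate 3 was the lowest of the 6 arrays and SLU7 replicate 1 the highest. The difference of 0.41 ± 0.32 (SE) log2 units, 1.33 times control (95% interval 0.805 to 2.19), did not pass (limma adjusted p = 0.68; exact two-sided permutation p = 0.4). In the pair it was 1.08 and in the other 4 arrays 0.08.

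CKMT2 was dim on all 6 arrays. Its levels were 3.92, 2.78 and 3.14 log2 units with control siRNA and 4.42, 3.77 and 3.72 with SLU7 siRNA. Control replicate 1 lay above SLU7 replicates 2 and 3, so the groups overlapped. The difference of 0.69 ± 0.36 (SE) log2 units, 1.61 times control (95% interval 0.912 to 2.84), did not pass (limma adjusted p = 0.48; exact two-sided permutation p = 0.3). The pair gave 1.64 and the other 4 arrays 0.21. For both muscle-type kinases, then, most of the positive difference came from comparing SLU7 replicate 1 with control replicate 2, and at these dim levels a fold is uncertain.

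**Figure D2:**
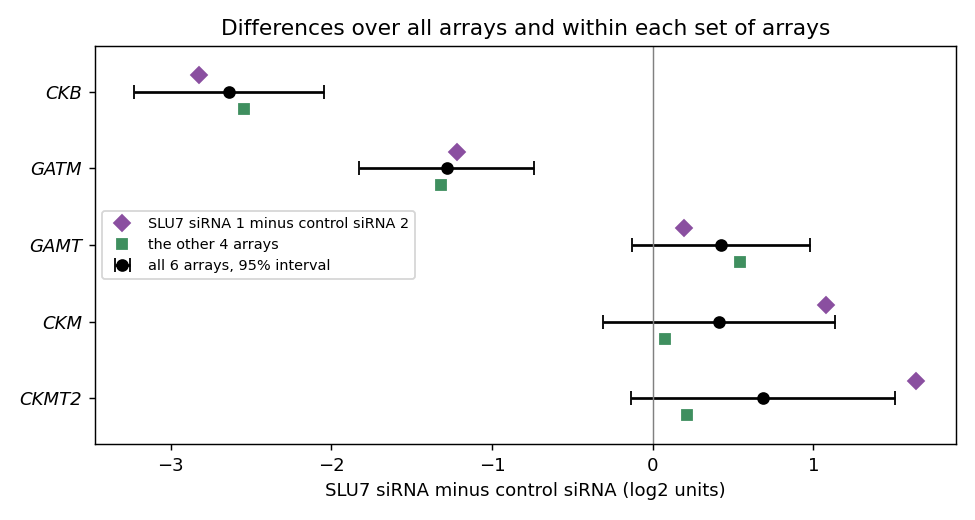
Difference between SLU7 siRNA and control siRNA (log2 units, horizontal axis) for each measured creatine gene: black points and bars are the estimate over all 6 arrays with its 95% interval, purple diamonds the single pair set apart by the first component and green squares the other 4 arrays. CKB (-2.83 and -2.55) and GATM (-1.22 and -1.32) have close values in both sets of arrays, whereas CKM (1.08 and 0.08) and CKMT2 (1.64 and 0.21) do not.

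Across the 5 measured members, 2 had groups apart with SLU7 siRNA lower (9.21% of all clusters did), 1 had groups apart with SLU7 siRNA higher (9.64% of all clusters) and 2 overlapped. Either direction without overlap was seen in 18.9% of all clusters. The median difference of the 5 was 0.41, beside 0.004 for all clusters, and lies far from the values of CKB and GATM because the other 3 genes were all above 0. The genes of this system thus had no common direction.

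**Figure D3:**
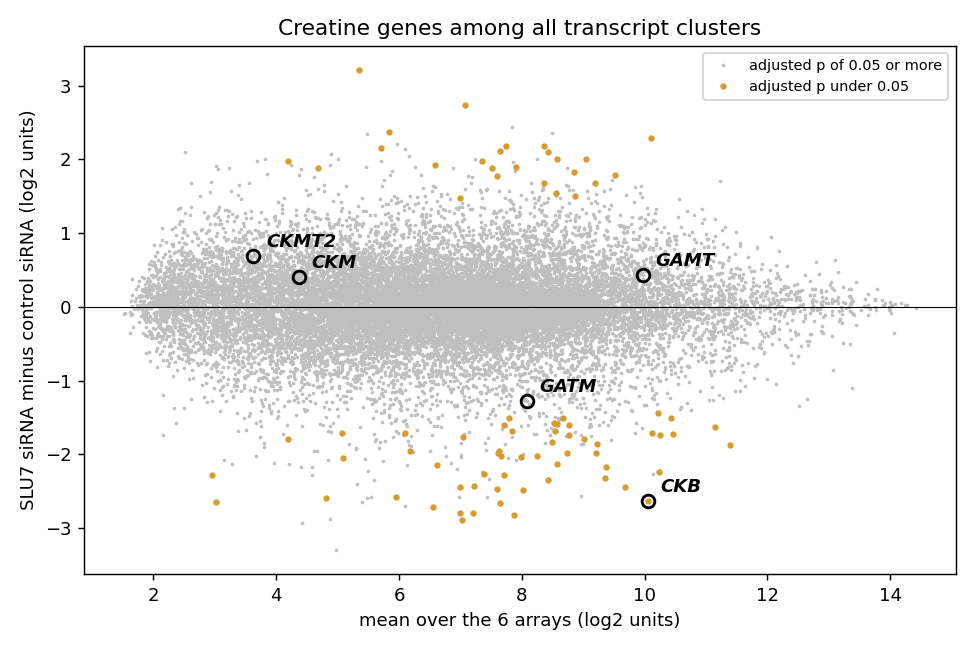
Each of the 18708 transcript clusters by its mean over the 6 arrays (horizontal axis, log2 units) and its difference between SLU7 siRNA and control siRNA (vertical axis, log2 units), with clusters at an adjusted p under 0.05 in orange and the creatine genes circled. CKB lies at the lower edge of the cloud among bright clusters, GATM inside its lower part, and GAMT, CKM and CKMT2 within the cloud above 0.

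CKM and CKMT2 are muscle genes, so markers of muscle were read beside them. All 21 skeletal and heart muscle markers were measured, none passed in either direction, and their median difference was 0.06. Their summed level (log2 of the summed linear values) was 10.75 to 11.36 on control arrays and 10.94 to 11.20 on SLU7 siRNA arrays. MYOD1, the master regulator of muscle fate, was dim in both groups (3.02 and 3.30), and 7 of the 21 were. Others lay well above the dim range, such as MYOG (8.24 and 8.42) and TNNI3 (8.28 and 8.62). With SLU7 siRNA, CKB (8.73) lay near these markers and GATM (7.44) below them. TNNT2, named after its values were seen, was the 1 marker with groups apart. It was higher with SLU7 siRNA (4.84 and 5.71, limma adjusted p = 0.38).

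CKB is named for brain, and neural markers were read beside it. Of 9 such genes 7 were measured, and none passed. Their summed level was lower on every SLU7 siRNA array (10.64 to 10.75) than on every control array (11.03 to 11.23), with a median difference of -0.22. The widest difference was that of SNAP25, a synaptic vesicle fusion protein, at -1.43 ± 0.27 (SE) log2 units (limma adjusted p = 0.061), a gene singled out after its values were seen. A sum of linear values is weighted to bright genes, and SNAP25 was one (9.35 with control siRNA and 7.92 with SLU7 siRNA). SYT1 (-0.06) and SLC17A7 (-0.05) hardly differed, and GAD1 was above 0 at 0.75, all 3 with overlapping groups. In 2 of the 7 the groups lay apart, both lower, beside 9.21% of all clusters that lay apart and lower. None of the 7 was dim in both groups, which does not show that these genes are on in this line. Their part in the CKB result was not tested. Hepatocyte markers were also lower in sum, at 14.11 to 14.24 on SLU7 siRNA arrays against 14.52 to 14.62 on control arrays, with none called and a median of -0.38. Of the 15 measured, 14 were below 0, beside 49.5% of all clusters. In 6 of the 15 the groups lay apart with SLU7 siRNA lower, and in none with it higher. Blood and endothelial markers (7 of 8 measured, median -0.09) and fibroblast markers (7 of 7, median 0.06) held no called gene. A lower share of cells with a gene on and less RNA per cell cannot be told apart in such bulk samples.

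Genes around creatine metabolism were then counted in 6 lists of 106 genes, of which 93 were measured. Of these 1 fell and 1 rose, or 2.15% against 0.433% of all clusters. On every SLU7 siRNA array 22 were below every control array, which is 23.7% of the 93 beside 9.21% of all clusters, and 5 were above (5.38% beside 9.64%). Their median difference was -0.12, with 61.3% below 0 beside 49.5% of all clusters. No chance test was made over these lists, which were chosen with earlier results of these data known.

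GATM uses arginine and glycine. The list of arginine and glycine supply also holds genes that use these amino acids, such as ARG2, so its counts do not describe supply alone. In it 27 of 29 genes were measured, none passed over all clusters, and the median was -0.26 with 19 below 0. In 10 of them every SLU7 siRNA array was below every control array, and in 1 every one was above. The largest differences were in CPS1, which makes carbamoyl phosphate for the urea cycle, at -1.39 ± 0.32 (SE) log2 units (limma adjusted p = 0.096), and in ASS1, which builds argininosuccinate on the way to arginine, at -1.35 ± 0.25 (adjusted p = 0.06).

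ASS1 levels were 13.14, 13.06 and 13.35 log2 units with control siRNA and 11.63, 12.00 and 11.88 with SLU7 siRNA. Both groups were very bright and did not overlap. The following were named after their values were seen. PHGDH, the first enzyme of serine synthesis, had a difference of -0.89, SHMT2, which makes glycine from serine in mitochondria, -0.84, the arginine transporter SLC7A2 -0.85, the mitochondrial ornithine carrier SLC25A15 -0.79 and the mitochondrial arginase ARG2 -0.72. None of these passed (limma adjusted p from 0.14 to 0.25), though the groups of each lay apart. PSAT1 (-0.05) and PSPH (-0.22), also of serine synthesis, had overlapping groups. In the same list 8 genes were above 0, among them DLD at 0.37 and NOS2 at 0.45. NOS2 was the 1 whose groups lay apart with SLU7 siRNA higher (limma adjusted p = 0.57).

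GAMT draws on S-adenosylmethionine. In the list of methyl donor supply and use 20 of 22 genes were measured, 1 fell, none rose, and the median was -0.34 with 15 below 0. The gene that fell was NNMT, which spends S-adenosylmethionine to methylate nicotinamide. Its levels were 12.34, 12.25 and 12.40 log2 units with control siRNA and 10.01, 10.57 and 10.81 with SLU7 siRNA. The fall was 1.87 ± 0.28 (SE) log2 units, a 3.65-fold lower level (95% interval 2.34 to 5.69; limma adjusted p = 0.047).

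The following genes of that list were also named after their values were seen. MAT1A, the liver form of the enzyme that makes S-adenosylmethionine, had a difference of -1.51 (limma adjusted p = 0.1), to a mean of 4.82. Its SLU7 siRNA values were 5.24, 5.14 and 4.08, so only replicate 3 was dim. MAT2A, another form of that enzyme, was brighter (8.59 and 8.92), with a difference of 0.33 and overlapping groups. The MAT2A difference was 1.11 in the pair set apart by the first principal component and -0.06 in the other 4 arrays. GNMT, which methylates glycine and is a main user of S-adenosylmethionine in normal liver, had one of 0.75 (adjusted p = 0.32). The groups of MAT1A lay 0.96 log2 units apart at their nearest values and those of GNMT 0.002, with 2 of the GNMT control values dim. GNMT was the 1 gene of the list with groups apart and SLU7 siRNA higher, while 6 had them apart and lower. Among the lower ones MTHFD1 had a difference of -1.38 (limma adjusted p = 0.14).

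Other routes of phosphate transfer showed no call. Of 25 adenylate, nucleoside and related kinases, adenine nucleotide carriers and outer-membrane channels 19 were measured, none passed, and the median was -0.07 with 11 below 0. The largest difference was in GUK1, guanylate kinase, at -1.88 ± 0.86 (SE) log2 units (limma adjusted p = 0.4). SLU7 replicate 1 read 2.98 for GUK1 while the other 2 SLU7 siRNA arrays read 6.51 and 6.27, inside or close to the control range of 6.36 to 7.58. NME4, a mitochondrial nucleoside diphosphate kinase, had a difference of -0.82 (adjusted p = 0.36).

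The AMP-activated kinase senses a fall in ATP, the state that creatine kinase buffers. All 9 genes of its list were measured, 1 rose, none passed as lower, and the median was -0.17. In 2 genes every SLU7 siRNA array was below every control array, and in 1 every one was above. The gene that rose was PRKAB1, a scaffold subunit. Its levels were 7.51, 8.25 and 8.39 log2 units with control siRNA and 10.03, 10.12 and 10.00 with SLU7 siRNA, which do not overlap. The rise was 2.0 ± 0.29 (SE) log2 units, or 4.0-fold (95% interval 2.51 to 6.36; limma adjusted p = 0.046). Without any 1 of the 6 arrays neither NNMT nor PRKAB1 passed, as no cluster did. Those 2 lower genes, named after their values were seen, were PRKAG2, a nucleotide-binding subunit, at -1.28 ± 0.24 (SE) log2 units (limma adjusted p = 0.067), and STK11, an upstream kinase, at -0.47 (adjusted p = 0.47).

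Of 16 regulators named in general knowledge beside creatine kinase genes 15 were measured, none passed, and their median was 0.28. EPAS1, the hypoxia-inducible factor 2 alpha subunit, had a difference of -1.24 ± 0.33 (SE) log2 units (limma adjusted p = 0.15) and ESRRA, an orphan nuclear receptor of mitochondrial genes, one of -1.18 ± 0.31 (adjusted p = 0.14). Both had groups apart with SLU7 siRNA lower, while 10 of the 15 were above 0. In 2 genes, named after their values were seen, the groups lay apart with SLU7 siRNA higher: YY1, a zinc finger factor, at 1.03 ± 0.28 (SE) log2 units (limma adjusted p = 0.15), and MEF2D, a factor of muscle genes, at 0.63 (adjusted p = 0.49). Among further creatine and related transporter genes 3 of 5 were measured and none passed: SLC16A12, a creatine exporter, had a difference of -0.26 and SLC6A11, a transporter of the same family as SLC6A8, one of 0.33, while the ubiquitous mitochondrial creatine kinase copies CKMT1A and CKMT1B had no cluster of 1 symbol and were not analysed here.

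**Figure D4:**
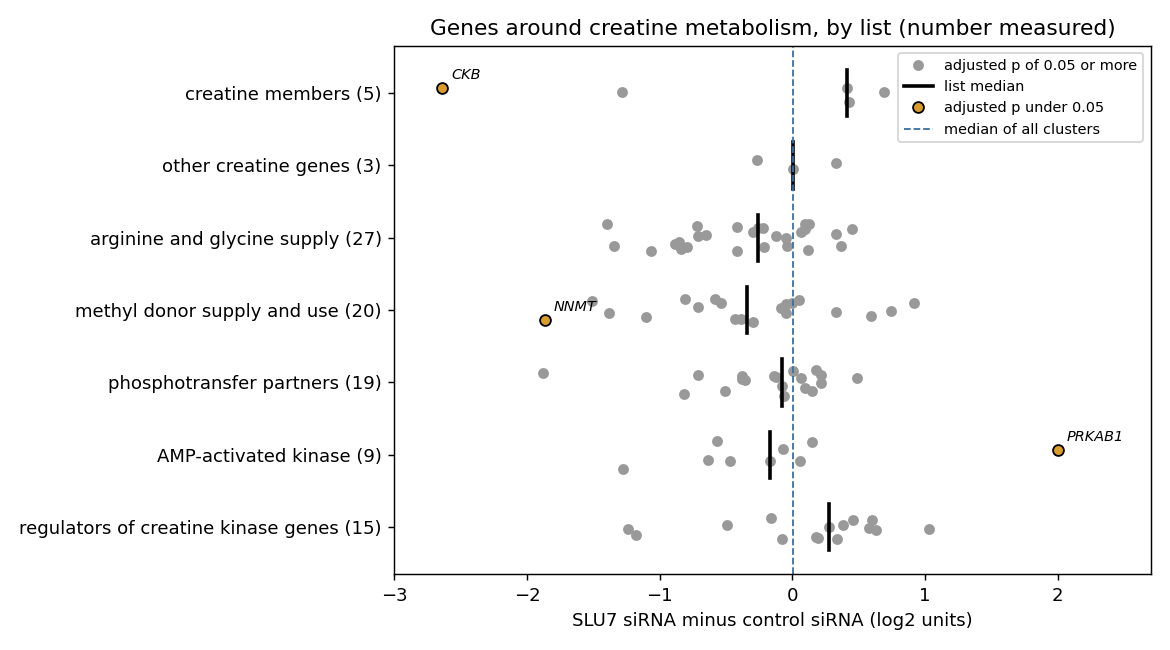
Differences between SLU7 siRNA and control siRNA (log2 units, horizontal axis) for every measured gene of the creatine members and of the 6 lists around them, with the number measured in brackets, black bars at list medians and a dashed line at the median of all clusters. Genes at an adjusted p under 0.05 are orange and named: CKB and NNMT lie to the left and PRKAB1 to the right.

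The clusters with a single gene name whose levels over the 6 arrays were most like those of CKB were found by Pearson correlation, as a description. All such values share the same 6 arrays and mostly repeat the gap between the groups, and 159 of 16286 clusters exceeded 0.95. The closest was NDUFS7, a core subunit of respiratory complex I (r = 0.997, n = 6), at 10.94 log2 units with control siRNA and 9.50 with SLU7 siRNA (limma adjusted p = 0.048). CRH, corticotropin-releasing hormone (r = 0.995), TLN1, the integrin adaptor talin (r = 0.993), AGPAT2, an enzyme of phosphatidic acid synthesis (r = 0.991), and EEF1G, a translation elongation factor subunit (r = 0.991), followed, with differences of -1.37, -1.42, -1.09 and -0.80.

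CKB and GATM had r = 0.976 over the 6 arrays and r = 0.04 once each group's mean was taken off (n = 6 both times), so their likeness over the arrays was that of the gap between groups. After the same step the clusters most like CKB were ENTR1, MPP3, CD58, CAMKV and RABIF (r from 0.997 to 0.999), whose own differences between groups were small, from -0.25 to 0.08. With 6 arrays, 227 clusters exceeded 0.95 on this measure.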

How the data were processed

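The deposited values were log2 expression levels, 1 per transcript cluster, made by the authors with RMA (background correction, normalization and a summary over probes), per the submitters' processing notes, and with the core chip definition of aroma.affymetrix, per the labels. The log2 scale was read from the range of the values (0.958 to 14.49). The genome build is not given in the sources used here. One value per gene hides shifts between exons, which can read as a shift in level. GEO's platform annotation gave 1 gene symbol to 16287 of 18708 clusters, several to 674 and none to 1747, and 2179 symbols were updated through RefSeq (GRCh38.p14).

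Groups were compared with limma 3.58.1 (R 4.3.3; lmFit and eBayes, group as the only term, no filter, Benjamini-Hochberg adjustment over all clusters, threshold 0.05). The fit was also tried on simulated data with independent noise on each array. That lacks the array structure seen in the first principal component, so it does not check the calls made here. No pair of arrays were copies: at most 9 clusters had identical values. Alternatives were a replicate block, array weights, quantile normalization, an intensity trend with robust shrinkage, no clusters below the lower quartile of mean level, median centring, a threshold of 0.01, a term for the pair of arrays set apart by the first principal component, leaving that pair out, the mean of a gene's clusters, and leaving out each array. The rule named the members, SLU7, called genes of each pathway list or else its 2 largest differences, and the 5 clusters most like CKB on each of 2 measures. Marker lists covered hepatocytes, muscle, neural, blood and endothelial cells, and fibroblasts. The members and lists were chosen with earlier results of these data known.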

Additional observations from a re-analysis of the deposited data

How the results depend on the processing

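CKM, CKMT2 and GAMT kept a positive difference and stayed outside the threshold under every alternative that gave a value. CKM and CKMT2 have no value without the clusters below the lower quartile of mean level (the dim filter), to which they belong. Quantile normalization, median centring and the mean of a gene's clusters changed no call of a member. The difference of CKB stayed -2.64 but missed the threshold with the replicate block and at a threshold of 0.01, and was -2.55 (limma adjusted p = 0.11) without the pair of arrays set apart by the first principal component. The difference of GATM passed at -1.28 with the dim filter, with the trend and with the term for the pair, and at -1.35 with array weights. That of SLU7 passed under the same settings, at -1.51 and at -1.61 with array weights. The term for the pair was read off these same arrays, so its p-values are likely too small.

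By limma 81 clusters, 1 member and 2 listed genes passed in the main analysis. The counts were 324, 2 and 4 with the dim filter, where fewer clusters were tested, 441, 2 and 6 with the trend, 575, 2 and 9 with array weights, and 783, 2 and 9 with the term for the pair. All 3 counts were 0 with the replicate block (1845 clusters at an unadjusted p under 0.05), at a threshold of 0.01 (2450), without the pair (2922) and without any 1 array (1833 to 2573). Without any 1 array the difference ran from -2.74 to -2.49 for CKB, -1.35 to -1.20 for GATM, 0.34 to 0.51 for GAMT, 0.13 to 0.68 for CKM, 0.44 to 1.01 for CKMT2 and -1.69 to -1.25 for SLU7. Same-numbered arrays correlated at -0.38, -0.31 and 0.14 after group means were taken off, so the numbers were not taken to pair the arrays. The causes of these shifts were not tested.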
